A study of Mus musculus with 5 samples.

Results

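Fatty acid oxidation and its regulation by peroxisome proliferator-activated receptors (PPARs) were followed through a list of 34 genes on arrays of mouse adipocytes. The list holds the carnitine shuttle, the enzymes of mitochondrial and peroxisomal beta-oxidation, the electron transfer flavoprotein system, classical PPAR target genes and the receptor genes Ppara and Ppard. A gene was represented by its brightest probe set among those that the platform annotation assigns to that gene alone. Such a probe set existed for 33 of the 34 genes, and 30 of them reached the floor, an intensity of 8.39, on at least 1 array. They are part of 12439 genes that did so among 18193 with a probe set of their own. The same floor served all 5 arrays, and Fabp3 reached it only on the resveratrol and DMSO1 arrays. Cpt1b has only a probe set that names several genes and was left out of every count. The brightest probe sets of Acot1, Vnn1 and Ppara stayed under the floor on all 5 arrays, although a second one of Ppara passed it on the resveratrol and DMSO1 arrays.

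The cells were C3H10T1/2, an established mouse mesenchymal line, differentiated into adipocytes and treated for 6 h. The 3 treated groups received butein, sulfuretin or resveratrol, and the groups DMSO and DMSO1 received the solvent. DMSO is the control used for butein and sulfuretin, and DMSO1 is the control that the labels name for resveratrol. Each group has 1 array, so differences have no error from replicates, no test exists within a comparison, and 5 arrays limit the precision. Doses, culture numbers and the passage of the line are not given in the labels. The deposited values fall into 2 normalization sets, with a median probe set intensity of 6.85 on the butein, sulfuretin and DMSO arrays, against 11.5 and 11.1 on the resveratrol and DMSO1 arrays, so a level is compared only within a set. Of 10 adipocyte markers 8 had a probe set and 7 reached the floor, Adipoq, Fabp4, Lpl and Retn among them, whereas Lep did not. Of the markers of other cell types, 2 of 6 for skeletal muscle reached the floor, 2 of 4 for macrophages and blood, 2 of 3 for liver, 1 of 2 for brown adipocytes and 2 of 3 for osteoblasts and chondrocytes. Among those under it on every array were Myod1, Myog, Alb, Ptprc and Ucp1, and among those above it Acta1, Ckm, Cd14, Ttr, Cidea and Col2a1. Apoa1 and Cd68 reached it only on the resveratrol and DMSO1 arrays, the set with the higher median.

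In beta-oxidation, long-chain fatty acids are linked to coenzyme A, moved into mitochondria on carnitine and shortened by repeated dehydrogenation, hydration, dehydrogenation and thiolysis. Peroxisomes shorten very long and branched chains by a parallel route. PPAR alpha and PPAR delta are nuclear receptors that bind fatty acids and raise transcription of many of these genes, and in white adipocytes PPAR gamma is the dominant member of the family.

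No member reached a 2-fold difference, the criterion used for calls, in any of the 3 treatments. With butein 2.03% of all counted genes reached it upward and 0.297% downward. The shares were 0.193% and 0.0482% with sulfuretin and 0.0804% and 0.0643% with resveratrol. At a lower criterion of 1.5-fold, Ppard was higher and Ehhadh lower with butein, and Cpt1a and Pdk4 were higher with resveratrol. With butein 5.01% of all genes passed this criterion upward and 2.47% downward, and with resveratrol 0.338% and 0.362% did. With sulfuretin no member reached 1.5-fold, as 1.36% of all genes did upward and 0.378% downward.

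**Figure D1:**
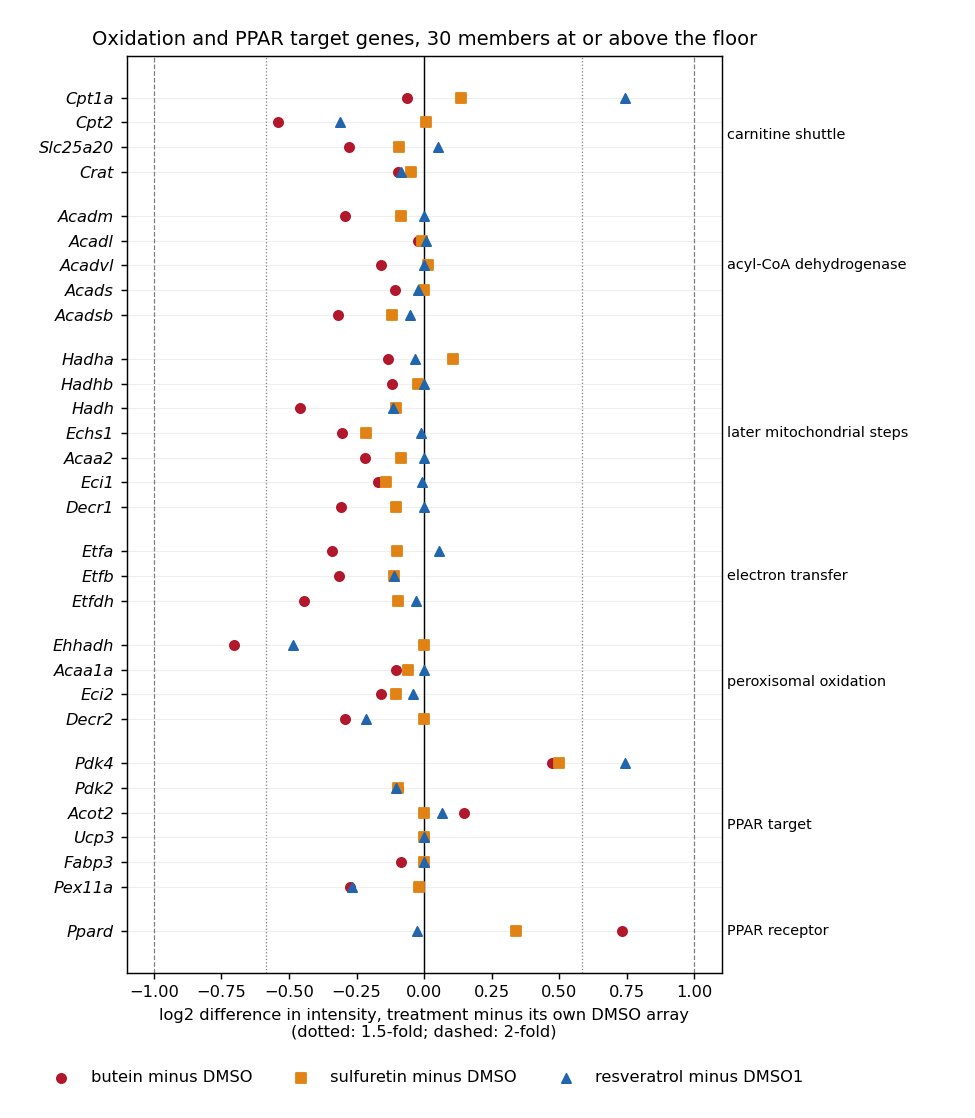
Log2 difference in intensity (x axis) for the 30 members that reach the floor, each a row grouped by role, with 1 point for butein minus DMSO, 1 for sulfuretin minus DMSO and 1 for resveratrol minus DMSO1. With butein all mitochondrial members lie left of 0, while Pdk4 lies right of 0 in the 3 treatments and Cpt1a lies far right only for resveratrol.

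Pdk4 was the member that stood higher in every treatment. It encodes pyruvate dehydrogenase kinase 4, which switches pyruvate dehydrogenase off and so spares glucose when fatty acids are burnt, and it is a classical PPAR and fasting-induced gene. Its intensity was 158 with butein and 161 with sulfuretin, against 114 in DMSO, a 1.39-fold and a 1.41-fold difference. It was 268 with resveratrol, against 160 in DMSO1, a 1.67-fold difference. Both solvent arrays were thus lower than the treated arrays of their own set. On a joint scale, made by quantile normalization over the 5 arrays, the solvent arrays differed by a log2 value of 0.01 for Pdk4, and the treatments differed from their own solvent by 0.45, 0.48 and 0.80 in the order butein, sulfuretin and resveratrol.

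The other inhibitory kinase on the list, Pdk2, was dim and hardly differed. It read 10.5 with butein, 10.5 with sulfuretin and 11.2 in DMSO, and 34.2 with resveratrol against 36.8 in DMSO1.

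Cpt1a encodes carnitine palmitoyltransferase 1A, the outer membrane enzyme that commits long-chain fatty acids to mitochondrial oxidation and is a PPAR target. It read 289 with resveratrol, against 173 in DMSO1, a log2 difference of 0.74. It read 111 with butein and 128 with sulfuretin, against 116 in DMSO, differences of -0.06 and 0.14. The resveratrol array was the high one, and the other treated arrays lay to either side of DMSO. Both dimmer probe sets of Cpt1a were also higher with resveratrol, but by less, with 144 against 126 in DMSO1 on one and 41.7 against 36.8 on the other (log2 0.19 and 0.18). Averaged over its 3 probe sets the difference was 0.37, so its size depends on the probe set taken.

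A test over all 12439 genes was possible only by treating DMSO and DMSO1 as replicates after joint quantile normalization, with limma and 1 residual degree of freedom. This takes the spread of each single treated array from the solvent pair, and limma draws each gene's spread toward a value pooled over all genes. Any difference between the 2 normalization sets that joint normalization left enters that pooled value. For Pdk4, whose solvent arrays differed by 0.01, the spread used was mainly the pooled one. With resveratrol Cpt1a and Pdk4 were the 2 members with an unadjusted two-sided p under 0.05 (0.0412 and 0.0465), a level that 0.241% of all genes reached. Against the mean of both solvent arrays their log2 differences were 0.85 and 0.81, and their adjusted p was 1 in the limma fit. No gene on the array passed at an adjusted p of 0.05 in any treatment. With butein the lowest unadjusted p of a member in limma was 0.0803, for Ehhadh, and 2.83% of all genes were under 0.05. With sulfuretin no member was under 0.05, and 0.305% of all genes were.

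**Figure D2:**
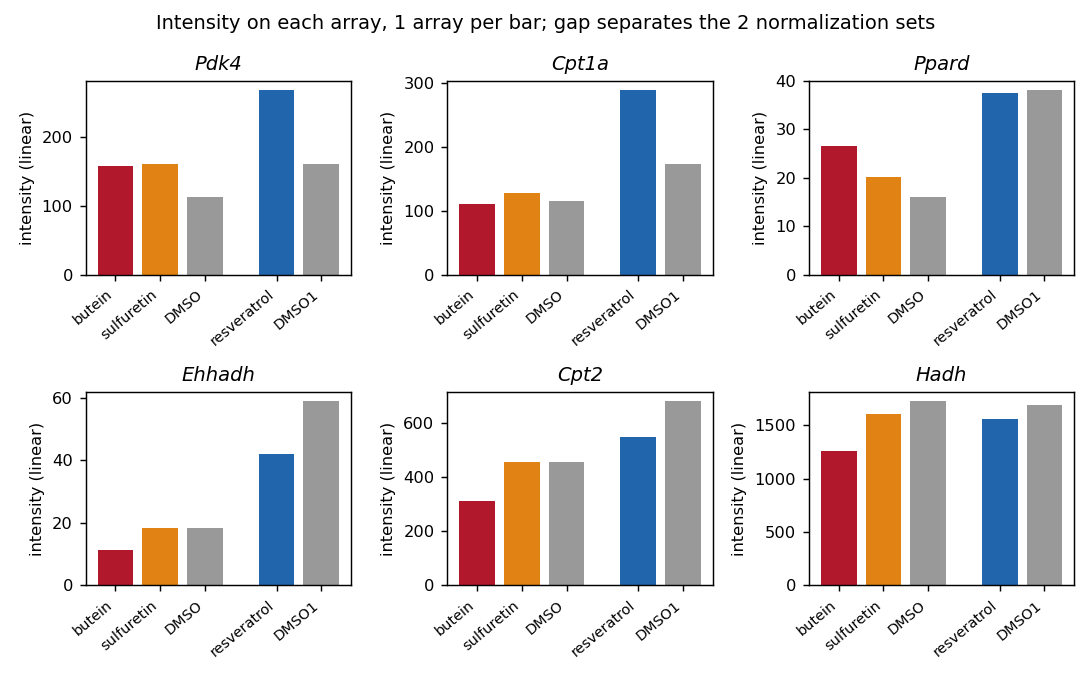
Deposited linear intensity (y axis, from 0) of 6 members on each array, 1 bar per array, with the butein, sulfuretin and DMSO arrays left of the gap and the resveratrol and DMSO1 arrays right of it. Pdk4 is above its own solvent array in each treatment, Cpt1a only clearly with resveratrol, and Ehhadh, Cpt2 and Hadh are lowest in their set with butein.

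The promoter windows of Pdk4 and Cpt1a are shown because these 2 genes were higher together with resveratrol. Each window is 250 bases before to 50 after the start site in RefSeq (GRCm38.p6), at chr6:5496229-5496528 on the minus strand and chr19:3323051-3323350 on the plus strand. Capitals mark matches, on either strand, to the nuclear receptor half-site AGGTCA, the core TGACNNNGC of antioxidant response elements, or CCAAT.
Pdk4: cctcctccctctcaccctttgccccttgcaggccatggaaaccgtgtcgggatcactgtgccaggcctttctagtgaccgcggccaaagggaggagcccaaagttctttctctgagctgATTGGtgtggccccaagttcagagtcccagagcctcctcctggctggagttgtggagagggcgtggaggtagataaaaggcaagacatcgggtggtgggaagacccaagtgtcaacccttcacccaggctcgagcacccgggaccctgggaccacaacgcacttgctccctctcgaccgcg
Cpt1a: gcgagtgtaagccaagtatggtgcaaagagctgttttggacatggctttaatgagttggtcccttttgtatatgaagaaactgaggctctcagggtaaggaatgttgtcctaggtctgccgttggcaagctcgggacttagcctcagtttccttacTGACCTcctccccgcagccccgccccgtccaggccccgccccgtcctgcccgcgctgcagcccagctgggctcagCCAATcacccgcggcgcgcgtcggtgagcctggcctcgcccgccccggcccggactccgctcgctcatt
The complete PPAR direct repeat, a pair of AGGTCA half-sites with 1 base of any kind between them, was in neither window, nor in that of any of the 29 members with a window, and 0.0396% of all 32851 windows hold it. Cpt1a holds the half-site once, on the reverse strand from base -94 relative to the start site, and Pdk4 does not. Of the 29 members, Acadm, Acadvl, Echs1 and Ucp3 also hold it, 5 genes in all, beside 16.3% of all windows. CCAAT, or its reverse complement, is in the windows of both genes, from -131 in Pdk4 and from -19 in Cpt1a. It occurs in 13 of the 29 members and in 37.4% of all windows. A match describes letters in the window and shows no binding. Only exact letters within each window were searched, so a missing match does not show that a gene lacks a PPAR site. The complete repeat is too rare for its absence from 29 windows to say anything about these genes.

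The receptor genes on the list gave dim signals. Pparg, outside the list, was bright, at 416 with butein and 355 with sulfuretin, against 462 in DMSO. It read 481 with resveratrol, against 602 in DMSO1, and so was lower than its solvent in each treatment. Ppara, which encodes the receptor that drives oxidation in liver, read 7.83 on the butein, sulfuretin and DMSO arrays and 6.19 on the resveratrol and DMSO1 arrays with its brightest probe set, under the floor throughout. A second probe set of Ppara was under the floor on the butein, sulfuretin and DMSO arrays and read 10.1 with resveratrol, against 11.5 in DMSO1 (log2 -0.18). Ppard, which encodes PPAR delta, a broadly expressed activator of oxidation genes, read 26.5 with butein and 20.2 with sulfuretin, against 16.0 in DMSO. These are log2 differences of 0.73 and 0.34. With resveratrol it read 37.5, against 38.1 in DMSO1. A second, dimmer probe set of Ppard read 6.85 on the butein, sulfuretin and DMSO arrays, so the higher value rests on 1 probe set. After joint normalization DMSO1 exceeded DMSO by 0.39 for Ppard, and with DMSO1 as the control the difference was 0.28 for butein and -0.07 for sulfuretin.

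Other PPAR targets on the list differed little. Ucp3, which encodes a mitochondrial carrier of muscle and brown fat, read 8.95 on all arrays of the first set and 11.5 on both of the second. Fabp3, a fatty acid-binding protein gene of heart and muscle, read 7.89 with butein, against 8.37 in DMSO, and 13.4 on both the resveratrol and DMSO1 arrays. Both lie near the floor, where a difference could not be seen. Acot2, which encodes a mitochondrial acyl-CoA thioesterase, read 222 with butein and 200.3 with sulfuretin, against 200.3 in DMSO, and 318 with resveratrol against 304 in DMSO1. Its near-identical paralog Acot1 read 4.21 on each array of the first set, and a probe set shared by both genes read 15.2 on each of them. Pex11a, whose product promotes peroxisome division, read 34.6 with butein and 41.3 with sulfuretin, against 41.8 in DMSO, and 61.4 with resveratrol against 73.9 in DMSO1. Without Pdk4 the 5 genes counted only as PPAR targets were Pdk2, Acot2, Ucp3, Fabp3 and Pex11a. Their median log2 differences were -0.08 with butein, 0 with sulfuretin and 0 with resveratrol. Cpt1a and Ehhadh, also PPAR targets, were counted with the oxidation genes. Pdk2, Ucp3 and Fabp3 were near the floor in the first set, so these medians say little about PPAR targets as a group.

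Mitochondrial oxidation genes were lower together with butein by small amounts. All 18 counted members read lower than in DMSO, with a median log2 difference of -0.29 (1.22-fold), a lowest value of -0.54 and a highest of -0.02. Among all counted genes 37.1% were lower at any size and the median was 0, while 29.9% had equal values on both arrays. Among the 4082 genes with a mean intensity of at least 100, which include all 18, 52.9% were lower and the median was -0.02. Over all 30 counted members 26 were lower, 3 higher (33% of all genes were) and 1 equal, with a median of -0.17. Fabp3, among the 26, was under the floor on the butein and DMSO arrays.

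The differences were spread over each step of the pathway. In the carnitine shuttle, Cpt2, whose inner membrane product rebuilds acyl-CoA in the matrix, read 313 with butein, against 455 in DMSO, the largest difference among the mitochondrial members (log2 -0.54). Slc25a20, which encodes the carnitine-acylcarnitine translocase, read 168 against 203. Crat, whose carnitine acetyltransferase works in mitochondria and peroxisomes, read 119 against 127. Thus the translocase and the inner enzyme were lower by more than Cpt1a, the outer one (-0.06).

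Of the 5 acyl-CoA dehydrogenase genes, which encode the first step for chains of different length, Acadsb, for short branched chains, read 117 with butein, against 145 in DMSO. Acadm, for medium chains, read 1362 against 1670. Acadl, for long chains, read 750 against 762 and was the mitochondrial member nearest to no difference. Acads and Acadvl lay between them at -0.11 and -0.16.

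Among the later steps, Hadh, which encodes the short-chain hydroxyacyl-CoA dehydrogenase, read 1256 with butein, against 1728 in DMSO (-0.46), and its second bright probe set read 561 against 709. Decr1, whose reductase handles unsaturated chains, read 494 against 611, and Echs1, the short-chain enoyl-CoA hydratase gene, 317 against 391. Acaa2 and Eci1, for the thiolase and the enoyl-CoA isomerase, differed by -0.22 and -0.17. All 3 genes of electron transfer were lower, with Etfdh, whose product passes electrons to ubiquinone, at 271 against 369 (-0.44), Etfa at 917 against 1161 and Etfb at 629 against 783.

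Hadha and Hadhb encode the alpha and beta subunits of the trifunctional protein for long chains. On their brightest probe sets they were lower with butein by similar amounts (-0.13 and -0.12). The genes lie head to head on chromosome 5, with start sites 273 bases apart, so their promoter windows share 228 of 300 bases. The Hadhb window (chr5:30155003-30155302, plus strand) is shown because it covers most of this shared promoter, and it holds none of the motifs searched.
Hadhb: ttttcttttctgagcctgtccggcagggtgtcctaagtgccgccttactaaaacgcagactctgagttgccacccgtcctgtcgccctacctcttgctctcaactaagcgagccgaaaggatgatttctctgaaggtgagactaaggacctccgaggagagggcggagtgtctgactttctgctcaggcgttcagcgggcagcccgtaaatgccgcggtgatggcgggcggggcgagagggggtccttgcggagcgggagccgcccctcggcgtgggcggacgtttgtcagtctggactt
Hadha read 218 with butein, against 239 in DMSO, and Hadhb read 1053 against 1144. With sulfuretin they differed by 0.11 and -0.02, and with resveratrol by -0.03 and 0.0007. A second Hadhb probe set read 495 with butein, against 636 in DMSO (-0.36), so the similar size with butein depends on the probe set taken. That probe set also disagreed for resveratrol, reading 951 against 1295 in DMSO1 (-0.45), where the brightest one read 1736 against 1735.

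Peroxisomal oxidation was represented by 4 members, all lower with butein, with a median of -0.23. Ehhadh, the bifunctional peroxisomal enzyme gene and a strong PPAR alpha target in rodent liver, read 11.3 with butein and 18.4 with sulfuretin, against 18.4 in DMSO, a 1.63-fold lower value with butein. It read 42.1 with resveratrol, against 59.0 in DMSO1 (log2 -0.49). The butein value lies near the floor, and on the joint scale DMSO1 exceeded DMSO by 0.88, more than either treatment differed from its solvent. Decr2, the peroxisomal dienoyl-CoA reductase gene, read 27.0 with butein and 33.1 with sulfuretin, against 33.1 in DMSO, and 54.4 with resveratrol against 63.1 in DMSO1. Acaa1a, a peroxisomal thiolase gene with a near-identical copy Acaa1b, read 120 with butein and 124 with sulfuretin, against 129 in DMSO, and 150 on both the resveratrol and DMSO1 arrays. Eci2, whose isomerase is found in peroxisomes and mitochondria, differed by -0.16, -0.11 and -0.04 in the order butein, sulfuretin and resveratrol.

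The windows of Ppard and Ehhadh are shown because these 2 genes passed 1.5-fold with butein, in opposite directions (chr17:28232504-28232803, plus strand, and chr16:21787785-21788084, minus strand, with capitals as above).
Ppard: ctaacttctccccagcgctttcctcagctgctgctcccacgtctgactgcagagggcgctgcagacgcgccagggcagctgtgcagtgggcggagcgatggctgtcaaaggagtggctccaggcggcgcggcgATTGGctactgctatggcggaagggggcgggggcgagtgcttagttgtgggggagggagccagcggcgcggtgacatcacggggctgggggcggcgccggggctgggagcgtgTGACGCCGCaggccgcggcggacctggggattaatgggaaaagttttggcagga
Ehhadh: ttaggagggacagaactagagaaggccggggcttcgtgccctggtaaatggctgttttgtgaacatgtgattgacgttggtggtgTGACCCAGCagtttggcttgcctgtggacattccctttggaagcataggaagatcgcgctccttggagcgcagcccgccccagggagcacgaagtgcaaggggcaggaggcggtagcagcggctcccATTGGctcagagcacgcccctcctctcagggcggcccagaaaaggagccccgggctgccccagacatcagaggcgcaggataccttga
Among the 29 members with a window, these were the 2 that hold the antioxidant response core TGACNNNGC, from -4 in Ppard and from -165 in Ehhadh, beside 12.4% of all windows. A link between this core and the butein values of these 2 genes was not tested. The Ppard difference rests on 1 probe set, and the butein value of Ehhadh lies near the floor.

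Mitochondrial and peroxisomal members lay close together in each treatment. With butein the mitochondrial median minus the peroxisomal one was -0.06, and with sulfuretin it was also -0.06. With resveratrol it was 0.12, from medians of -0.003 and -0.13. On the joint scale the solvent arrays differed from each other in this quantity by 0.14 in size. None of the 3 values above was larger, nor were those on the joint scale (-0.02, -0.02 and 0.13 in the same order). Without Eci2 this quantity was 0.006 with butein, -0.09 with sulfuretin and 0.21 with resveratrol, the last larger than the 0.14, which was computed with Eci2. With the mean of all probe sets it was 0.002 with butein, 0.009 with sulfuretin and 0.13 with resveratrol, so the sign turned with butein and sulfuretin.

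**Figure D3:**
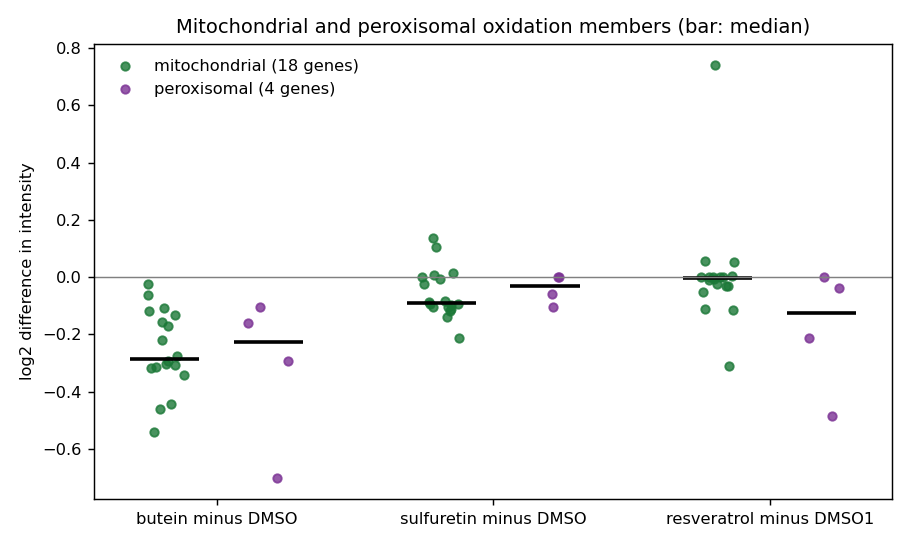
Log2 difference in intensity (y axis) of 18 mitochondrial and 4 peroxisomal oxidation members in each comparison, 1 point per gene with horizontal scatter for legibility and a bar at the median. With butein both groups lie below 0, and with resveratrol the mitochondrial points gather at 0 apart from Cpt1a above and Cpt2 below, while Ehhadh and Decr2 lie below.

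Sulfuretin left the oxidation genes near their solvent levels, most of the mitochondrial ones slightly lower. Of 30 counted members 18 were lower, 6 higher and 6 equal, with a median of -0.04, while 32.6% of all genes were lower, 34.8% higher and 32.5% equal. At a mean intensity of at least 100, 16 of 23 members were lower, beside 46.6% of all such genes. Of the 18 mitochondrial members 13 were lower, 4 higher and 1 equal. They had a median of -0.09 and ranged from -0.21 (Echs1) to 0.14 (Cpt1a). The 3 electron transfer genes differed by between -0.11 and -0.10. Cpt2 read 457, against 455 in DMSO.

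Butein is a chalcone and sulfuretin an aurone, which has the chalcone bridge closed into a furanone ring, and both carry a catechol. Set against butein directly, sulfuretin was higher for 26 of 30 members, lower for 2 and equal for 2, with a median of 0.15. All 18 mitochondrial members were higher, by 0.01 to 0.55, and none reached 1.5-fold. Of all genes 37% were higher, 30.1% lower and 32.9% equal, and higher were 53.1% of those with a mean intensity of at least 100. No member reached 2-fold, beside 0.0965% of all genes upward and 1.04% downward. Ehhadh, at 18.4 with sulfuretin and 11.3 with butein, was the 1 member past 1.5-fold upward, as 0.981% of all genes were, and none passed downward, as 2.83% of all genes did. Ppard was lower with sulfuretin by 0.39, and Pdk4 differed by 0.03. This comparison shares the butein array with butein minus DMSO and the sulfuretin array with sulfuretin minus DMSO, so it is not independent of them. With 1 array per compound it has no test or interval.

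With resveratrol the mitochondrial enzymes matched their solvent array closely. Of 30 counted members 16 were lower, 7 higher and 7 exactly equal, with a median of -0.009. Of all genes 34% were lower, 32.9% higher and 33.1% equal. At a mean intensity of at least 100, 11 of 23 members were lower, beside 49.6% of all such genes. The 5 dehydrogenases lay between -0.05 and 0.005. Cpt2, at 550 against 682 in DMSO1 (-0.31), was the lowest mitochondrial member, and Cpt1a was the highest. On the brightest probe sets the carnitine shuttle thus held both ends of the mitochondrial range, its outer enzyme gene higher and its inner one lower. The second bright probe set of Hadhb was lower than Cpt2, at -0.45. Against the DMSO array on the joint scale, Cpt2 with resveratrol differed by only -0.05.

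The DMSO1 and DMSO arrays set a scale for these sizes. On the joint scale the 30 members differed between DMSO1 and DMSO by -0.37 to 0.91, with a median of 0.19, while the median of all genes was -0.07. Of the members 21 were higher in DMSO1, and Hadha (0.91), Crat (0.89), Ehhadh (0.88) and Pdk2 (0.82) passed 1.5-fold. Of all genes 22.6% passed 1.5-fold between these arrays. With butein 16 of 30 members differed from DMSO by more than the solvent arrays differed from each other, a share of 53.3%, beside 28.3% of all genes. With sulfuretin 5 did (16.7%, beside 17.6% of all genes) and with resveratrol 6 (20%, beside 13.6%). Pdk4, Cpt1a and Acads were among them in all 3 treatments. For Pdk4 and Acads the solvent arrays hardly differed (0.01 and -0.0001), so even a very small difference would exceed that gap. Acads differed from its solvent by only -0.003 with sulfuretin and 0.003 with resveratrol on this scale. The sets were normalized separately before deposit, and the part of that step in the gap between the solvent arrays was not tested.

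**Figure D4:**
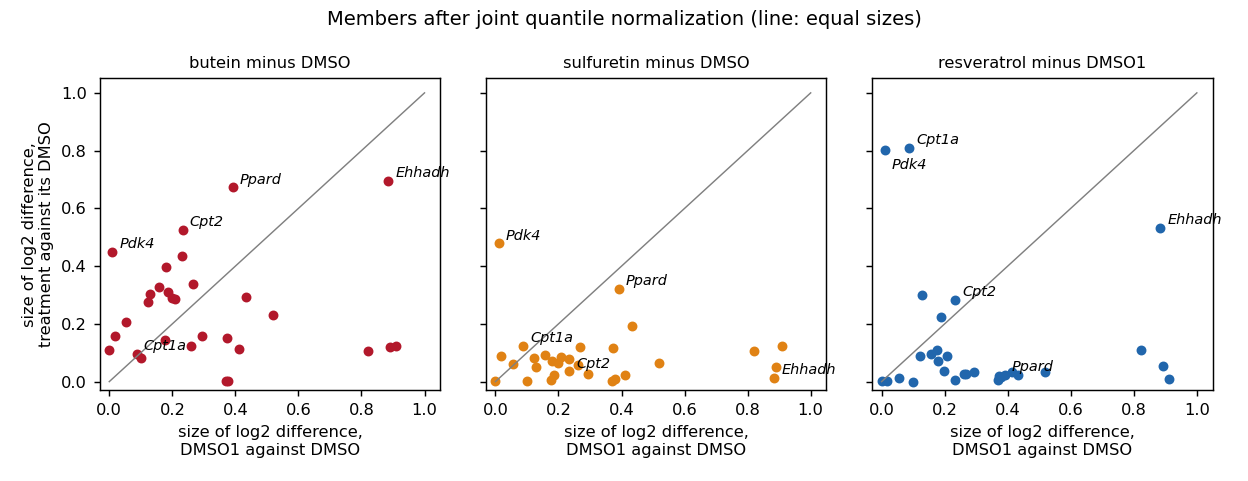
Size of the log2 difference between each treatment and its own solvent array (y axis) against the size of the difference between DMSO1 and DMSO (x axis) for 30 members after joint quantile normalization, 1 panel per treatment. Points above the line differ more with treatment than between the solvent arrays, and Pdk4 lies far above it in each panel.

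All 7 counted adipocyte markers were lower with butein (median -0.23) and with resveratrol (median -0.11). With sulfuretin 3 were lower and 4 higher (median 0.001). Among all counted genes 37.1% were lower with butein, 32.6% with sulfuretin and 34% with resveratrol. The summed intensity of the 8 markers with a probe set was 20687 with butein and 23537 with sulfuretin, against 23675 in DMSO, and 22385 with resveratrol, against 23926 in DMSO1. Of the markers of other cell types, Acta1, a muscle actin gene, read 45.3 with butein, against 71.1 in DMSO, and Col2a1, a cartilage collagen gene, 25.8 against 44.4. Cd14 and Cidea were also lower with butein (-0.56 and -0.45), and Ckm hardly differed (-0.02). Sp7, Apoa1 and Ttr were equal to DMSO. Cd68 was higher (0.42), with values under the floor on the butein and DMSO arrays. In RNA from whole cultures fewer adipocytes and less RNA per adipocyte cannot be told apart, and the part of these markers in the lower oxidation genes was not tested.

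Genes outside the 34, from these or related pathways, were read from lists chosen by pathway. Among all counted genes 37.1% were lower with butein, 32.6% with sulfuretin and 34% with resveratrol. The further mitochondrial list held 12 counted genes, not all of them beta-oxidation enzymes. Of these 10 were lower with butein, 7 with sulfuretin and 8 with resveratrol. Their medians were -0.21, -0.03 and -0.03, and none passed 2-fold. Acad11, an acyl-CoA dehydrogenase gene, was the farthest from DMSO, at 109 with butein against 163 in DMSO. Of 17 further peroxisomal genes 12 were lower with butein, 5 with sulfuretin and 11 with resveratrol (medians -0.05, 0 and -0.12).

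The peroxisomal gene farthest from its solvent array was Abcd2, which encodes a transporter of very long-chain fatty acids into peroxisomes. Abcd2 read 16.8 with butein and 26.4 with sulfuretin, against 38.1 in DMSO, a 2.26-fold lower value with butein, and 54.4 with resveratrol against 70.0 in DMSO1. It was the 1 gene of that list past 2-fold. Hsd17b4, the bifunctional enzyme gene for branched chains, read 347 with butein and 424 with sulfuretin, against 492 in DMSO, and 444 with resveratrol against 565 in DMSO1. Both were lower than their solvent in each treatment.

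Of all counted genes 33% were higher and 37.1% lower with butein, 34.8% and 32.6% with sulfuretin, and 32.9% and 34% with resveratrol. Of 18 further PPAR targets and partners, 6 were higher and 9 lower with butein, 7 and 7 with sulfuretin, and 3 and 11 with resveratrol. The 1 gene past 2-fold with resveratrol was Angptl4, a fasting-induced PPAR target whose product inhibits lipoprotein lipase, at 141 against 65.4 in DMSO1. It read 32.0 on the butein, sulfuretin and DMSO arrays. Past 2-fold with butein was Hilpda, a lipid droplet gene that inhibits lipolysis and responds to hypoxia and PPARs, at 35.9 against 16.3 in DMSO. Pck1, whose carboxykinase feeds glycerol synthesis in adipocytes, was 1.59-fold lower with resveratrol, at 20.1 against 32.1 in DMSO1, although Pdk4, Cpt1a and Angptl4 were higher there.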

How the data were processed

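Total RNA of C3H10T1/2 adipocytes was hybridised to Affymetrix mouse arrays, 1 per group. The deposited values are intensities made with RMA, per the submitters' processing notes. The sources used here do not give its version or the scale it wrote. The range of the values shows a linear scale, and the arrays' distributions show 2 separately normalized sets. Log2 was taken with no pseudocount.

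Of 45037 probe sets 34945 name 1 gene, 932 several, and 9160 are unnamed here. A RefSeq table (GRCm38.p6) held 34741 of their gene IDs and supplied current symbols and promoters. The floor is the median, over probe sets, of the mean log2 intensity. The criterion was 2-fold, with 1.5-fold beside it, and values within 1e-06 on the log2 scale were called equal. Named in full were members past 1.5-fold and Cpt1a, Cpt1b, Pdk4, Ppara, Ppard, Ucp3, Ehhadh and Acaa1a. List genes were named by largest difference, up to 4 a list. The other members described, and the comparison with genes of a mean intensity of at least 100, were chosen after their values were seen. The members and lists were chosen with earlier results of these data known. Alternatives are those in the closing section. The fold call and limma were tested on simulated data. Python 3.11.15, numpy 2.4.6, pandas 2.3.3, R 4.3.3 and limma 3.58.1 were used.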

Additional observations from a re-analysis of the deposited data

How the results depend on the processing

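The count of members past 2-fold was 0 in each comparison. At 1.5-fold it was 2 with butein, 0 with sulfuretin, 2 with resveratrol and 1 for sulfuretin against butein. Against the other DMSO array, on the jointly normalized scale, 3 members passed 2-fold downward with butein, and 1 did with the mean of both DMSO arrays. No floor, the mean of all probe sets and joint normalization alone left the 4 counts at 0, and so did limma in the 3 comparisons with a solvent array, where it was run. With the other DMSO array the median of the members became -0.44 with butein, -0.20 with sulfuretin and 0.24 with resveratrol, and with the mean of both it was -0.31 with butein, so the direction was kept with butein and sulfuretin and turned with resveratrol. The mitochondrial minus peroxisomal median became -0.17 with butein and 0.27 with resveratrol against the other DMSO array, and 0.22 with resveratrol against the mean of both. Each of these was larger in size than the 0.14 between the solvent arrays. The count of mitochondrial members lower with butein, examined under alternatives chosen after seeing the data, was 18 of 18 with the mean of all probe sets and 17 of 18 with joint normalization (all but Acadl) or with either other control (all but Eci1). Against the other DMSO array, 4 members turned sign with butein, 8 with sulfuretin and 11 with resveratrol, Ehhadh among the last (0.35). Pdk4 stayed higher in every treatment and Cpt1a with resveratrol under each alternative that gave them a value. These results are limited by 1 array per group and by signals near the floor for Ehhadh, Ucp3, Fabp3 and Pdk2. No paired analysis was possible because each group has 1 array and the labels give no replicate numbers.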

Other observations

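Around pyruvate dehydrogenase, the enzyme that Pdk4 restrains, 7 of 8 genes of the list were lower and 1 higher with butein (median -0.17). With sulfuretin 3 were lower and 4 higher (0.001), and with resveratrol 6 were lower and 1 higher (-0.07). Among all counted genes 37.1%, 32.6% and 34% were lower, in the order butein, sulfuretin and resveratrol. Pdk1, the kinase gene of the hypoxia response, read 341 with sulfuretin and 221 with butein, against 193 in DMSO, so sulfuretin was 1.77-fold higher, and 228 with resveratrol against 283 in DMSO1. Of the 8 genes of this list with a value, Pdk1 with sulfuretin was the 1 past 1.5-fold in any treatment. Dlat, which encodes the acetyltransferase subunit of the enzyme, read 248 with butein and 312 with sulfuretin, against 346 in DMSO, and 495 with resveratrol against 519 in DMSO1. Pdp2, which encodes a phosphatase that reactivates the enzyme, read 14.1 with butein and 21.2 with sulfuretin, against 20.4 in DMSO, and 27.2 with resveratrol against 31.8 in DMSO1.

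A probe set that names Cpt1b together with other genes read 8.17 with butein and 7.83 with sulfuretin, against 7.83 in DMSO, and 20.4 on both the resveratrol and DMSO1 arrays. The brighter of the probe sets that name both Acaa1a and Acaa1b read 278 with butein and 325 with sulfuretin, against 308 in DMSO, and 354 with resveratrol against 373 in DMSO1.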
